A study of Arabidopsis thaliana with 8 samples.

Results

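The genes described are 9 markers of sulfur deficiency in Arabidopsis thaliana: LSU1 (AT3G49580), LSU2 (AT5G24660), LSU3 (AT3G49570), LSU4 (AT5G24655), SDI1 (AT5G48850), SDI2 (AT1G04770), GGCT2;1 (AT5G26220), BGLU28 (AT2G44460) and SHM7 (AT1G36370). They were chosen by locus identifier, as 9 of the 33557 genes in each of 3 tables, with results of these tables already known. Their levels and calls are therefore a description, and no count of them is used as a test. All 9 were present in every table.

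Plants take up sulfate through the roots, activate it with ATP, reduce it to sulfide and fix the sulfide into cysteine, from which glutathione, methionine and glucosinolates draw their sulfur. When sulfate runs short, the transcription factor EIL3, also called SLIM1, and the cysteine precursor O-acetylserine are known to raise a small set of genes in roots and shoots, among them the ones described here. The LSU genes (RESPONSE TO LOW SULFUR) encode short plant-specific proteins that bind many partners. SDI1 and SDI2 (SULFUR DEFICIENCY INDUCED) encode tetratricopeptide proteins that repress the synthesis of aliphatic glucosinolates, while GGCT2;1 degrades glutathione in the cytosol. BGLU28 is a β-glucosidase linked to the breakdown of glucosinolates, and SHM7, also known as MSA1, is a serine hydroxymethyltransferase of the nucleus linked to S-adenosylmethionine supply.

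RNA came from the last 1 cm of the root of 7-day-old seedlings in the Columbia background, grown on vertical plates of 1/2 MS medium. The 8 libraries form 4 groups of 2: untreated wild type, wild type given 100 µM abscisic acid (ABA, a stress hormone) for 3 h, the mutant bin2-1, and the double mutant bzr1-D/bin2-1. The bin2-1 allele makes BIN2, a GSK3-like kinase that turns off brassinosteroid signalling, hyperactive, and bzr1-D makes the brassinosteroid transcription factor BZR1 stable; the double mutant carries the bin2-1 allele too. The labels name no ABA treatment for the mutants, and they do not say whether the 2 libraries of a group came from separately grown plants. The series title asks how brassinosteroid and ABA oppose each other through BZR1 and ABI5.

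Each table compares a pair of groups and gives 1 value per gene and group, read as FPKM (sequenced fragments per length of transcript and per library size). Values per library were not analysed here, so no spread between libraries and no depth can be set beside a level. A gene is said to rise or fall where the authors' deposited table gives a q-value, the p-value adjusted for multiple tests, under 0.05. Fold changes are the ratio of the group values, with no pseudocount. In such bulk RNA, fewer cells of a type and less RNA per cell cannot be told apart. The 8 root markers (SCR, SHR, WOX5, PLT1, CASP1, EXPA7, COBL9 and RHD6) were detected in every group and none was at 0. Their summed level was 259 FPKM in untreated and 305 FPKM in ABA-treated wild type, 276 and 333 FPKM in wild type and bin2-1, and 347 and 393 FPKM in bin2-1 and the double mutant. Of the 3 markers of green tissue, RBCS1A stayed between 2.38 and 3.90 FPKM, and LHCB1.1 and LHCB2.1 were under 0.5 FPKM in every group.

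The 4 LSU genes lie in 2 tandem pairs, each on the minus strand, in the RefSeq annotation of TAIR10.1. LSU3 (chr3:18372404-18373147) and LSU1 (chr3:18374908-18375940) are separated by 1760 bases, and LSU4 (chr5:8440601-8441364) and LSU2 (chr5:8443279-8444101) by 1914 bases, with 0 annotated genes between the members of either pair. LSU2, LSU3 and LSU4 each have 1 exon. The proteins, translated from the annotated coding sequences, are 94 residues long for LSU1 and LSU2, 97 for LSU3 and 92 for LSU4. LSU2 and LSU4 share 88.3% of aligned residues and LSU1 and LSU3 share 75.3%, and across the pairs the shares are 75.3% for LSU2 and LSU3, 70.1% for LSU3 and LSU4, 64.9% for LSU1 and LSU2 and 59.6% for LSU1 and LSU4. The coding sequences of LSU2 and LSU4 are 87.0% identical, so reads may have been shared between them, which was not tested.

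The other 5 genes lie apart from the LSU genes. SDI1 (chr5:19805437-19807853, minus strand) and SDI2 (chr1:1336274-1337849, minus strand) have 4 exons each, and their proteins of 306 and 303 residues are 56.2% identical. GGCT2;1 lies at chr5:9162969-9164884 on the minus strand, BGLU28 at chr2:18346306-18350026 on the plus strand and SHM7 at chr1:13696042-13698739 on the minus strand. SDI2 was the only gene of the 9 to overlap another annotated gene, VAMP726.

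The upstream sequences of the 4 LSU genes are printed because the genes differ so much in response. Those of SDI1 and GGCT2;1 are printed because these had the largest rises called in bin2-1 outside the LSU genes. Each run is the 250 bases before the annotated start, 5′ to 3′ on the gene's own strand, read from RefSeq TAIR10.1 at chr3:18375941-18376190 (LSU1), chr3:18373148-18373397 (LSU3), chr5:8444102-8444351 (LSU2), chr5:8441365-8441614 (LSU4), chr5:19807854-19808103 (SDI1) and chr5:9164885-9165134 (GGCT2;1), all on the minus strand. Capitals mark matches, on either strand, to the motifs described after them.
LSU1: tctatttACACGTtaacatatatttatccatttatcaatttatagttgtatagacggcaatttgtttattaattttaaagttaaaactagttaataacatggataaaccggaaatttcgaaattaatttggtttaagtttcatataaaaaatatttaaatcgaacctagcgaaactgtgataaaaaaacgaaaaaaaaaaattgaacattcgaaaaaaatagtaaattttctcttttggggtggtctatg
LSU3: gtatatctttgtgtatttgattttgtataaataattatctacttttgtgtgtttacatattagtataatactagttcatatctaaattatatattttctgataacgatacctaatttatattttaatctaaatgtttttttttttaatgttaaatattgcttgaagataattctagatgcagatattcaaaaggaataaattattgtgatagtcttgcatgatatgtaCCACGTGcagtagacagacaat
LSU2: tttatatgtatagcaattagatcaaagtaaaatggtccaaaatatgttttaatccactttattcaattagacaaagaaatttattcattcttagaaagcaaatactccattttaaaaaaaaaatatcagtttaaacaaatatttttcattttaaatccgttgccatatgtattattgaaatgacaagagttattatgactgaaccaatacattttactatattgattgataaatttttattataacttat
LSU4: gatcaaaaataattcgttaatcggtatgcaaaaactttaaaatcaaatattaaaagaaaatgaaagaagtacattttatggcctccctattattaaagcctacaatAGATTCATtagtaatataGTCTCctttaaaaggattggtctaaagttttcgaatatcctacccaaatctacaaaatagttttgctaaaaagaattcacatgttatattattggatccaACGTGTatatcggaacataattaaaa
SDI1: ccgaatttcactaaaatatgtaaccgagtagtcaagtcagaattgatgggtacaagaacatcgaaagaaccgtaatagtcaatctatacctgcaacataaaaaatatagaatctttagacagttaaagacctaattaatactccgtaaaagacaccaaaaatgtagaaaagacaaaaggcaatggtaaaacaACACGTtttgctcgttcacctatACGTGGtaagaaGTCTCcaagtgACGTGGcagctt
GGCT2;1: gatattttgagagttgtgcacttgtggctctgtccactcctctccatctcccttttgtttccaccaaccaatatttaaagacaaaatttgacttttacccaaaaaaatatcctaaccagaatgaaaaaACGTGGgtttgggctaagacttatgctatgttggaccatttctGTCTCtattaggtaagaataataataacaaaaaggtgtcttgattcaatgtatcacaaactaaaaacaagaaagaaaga

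The motifs were searched on both strands in the 250 bases before each start. They were the core of the sulfur-responsive element SURE, GAGAC; the G-box, CACGTG; the ABA-responsive element ABRE, as ACGTGT or ACGTGG; the brassinosteroid response element BRRE, as CGTGTG or CGTGCG; and TEIL, the motif of EIN3-like factors, as ACGAACCT or ACGAATCT or ACGTACCT or ACGTATCT or ATGAACCT or ATGAATCT or ATGTACCT or ATGTATCT. Letters of the ABRE and the G-box overlap. Upstream of LSU3 a G-box from 21 to 16 bases before the start overlapped an ABRE from 22 to 17 bases before it. Upstream of LSU4 lay a TEIL match 144 to 137 bases, a SURE core 126 to 122 bases and an ABRE 26 to 21 bases before the start. LSU1 had a single ABRE, 243 to 238 bases before its start, and none of these letters occurred in the window of LSU2. SDI1 had 3 ABREs and a SURE core 23 to 19 bases before its start, and GGCT2;1 had an ABRE and a SURE core.

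Across the 9 windows an ABRE occurred in 6, against 16.0% of 27443 Arabidopsis promoters of the same length, and a SURE core in 4, against 25.8%. TEIL occurred in 2 (LSU4 and SHM7), against 5.93%, the G-box in 1 (LSU3), against 6.49%, and the BRRE in 1 (SDI2), against 6.71%. A match is a run of letters, and nothing about binding follows from it.

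**Figure D1:**
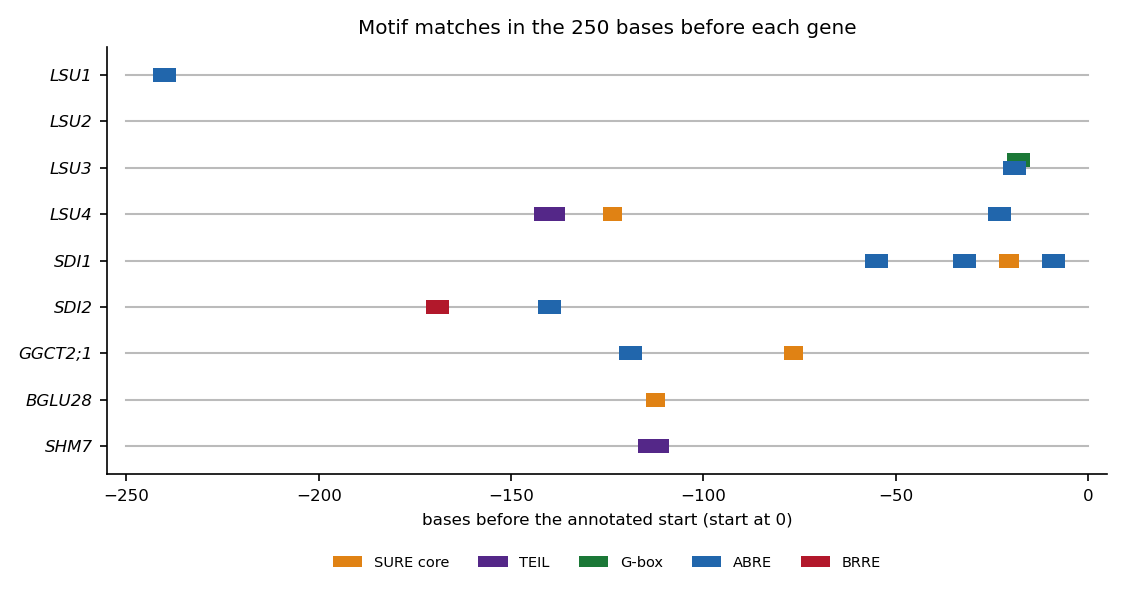
Matches to 5 motifs (coloured bars) in the 250 bases before the start of each of the 9 genes (rows); the x axis is the number of bases before the annotated start. ABREs occur in 6 rows, SURE cores in 4, and the row of LSU2 is empty.

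In the ABA comparison 2 of the 8 genes tested rose, LSU1 and LSU3, and 0 fell, also at an unadjusted p under 0.05 in the authors' deposited table. Among all 20126 tested genes 15.1% rose and 9.51% fell. In bin2-1 against wild type, 5 of 9 rose (LSU1, LSU3, SDI1, GGCT2;1 and SHM7) and 1 fell (LSU2), beside 25.4% of all 20404 tested genes that rose and 25.6% that fell. In bzr1-D/bin2-1 against bin2-1, 2 of 9 rose (LSU2 and LSU4) and 3 fell (SDI1, GGCT2;1 and BGLU28), beside 11.9% and 12.8% of 20410 tested genes. The choice of genes used these contrasts, so nothing is read from the counts. The median log2 fold change of the tested members was 0.54, 1.93 and -0.30 in the 3 comparisons, against 0.01, -0.01 and -0.01 over all tested genes. Root markers moved as well: 2 of 8 rose and 1 fell under ABA, 4 rose (WOX5, EXPA7, COBL9 and RHD6) and 1 fell (CASP1) in bin2-1, and 2 rose and 2 fell with bzr1-D. The part of such shifts in the members' values was not tested.

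**Figure D2:**
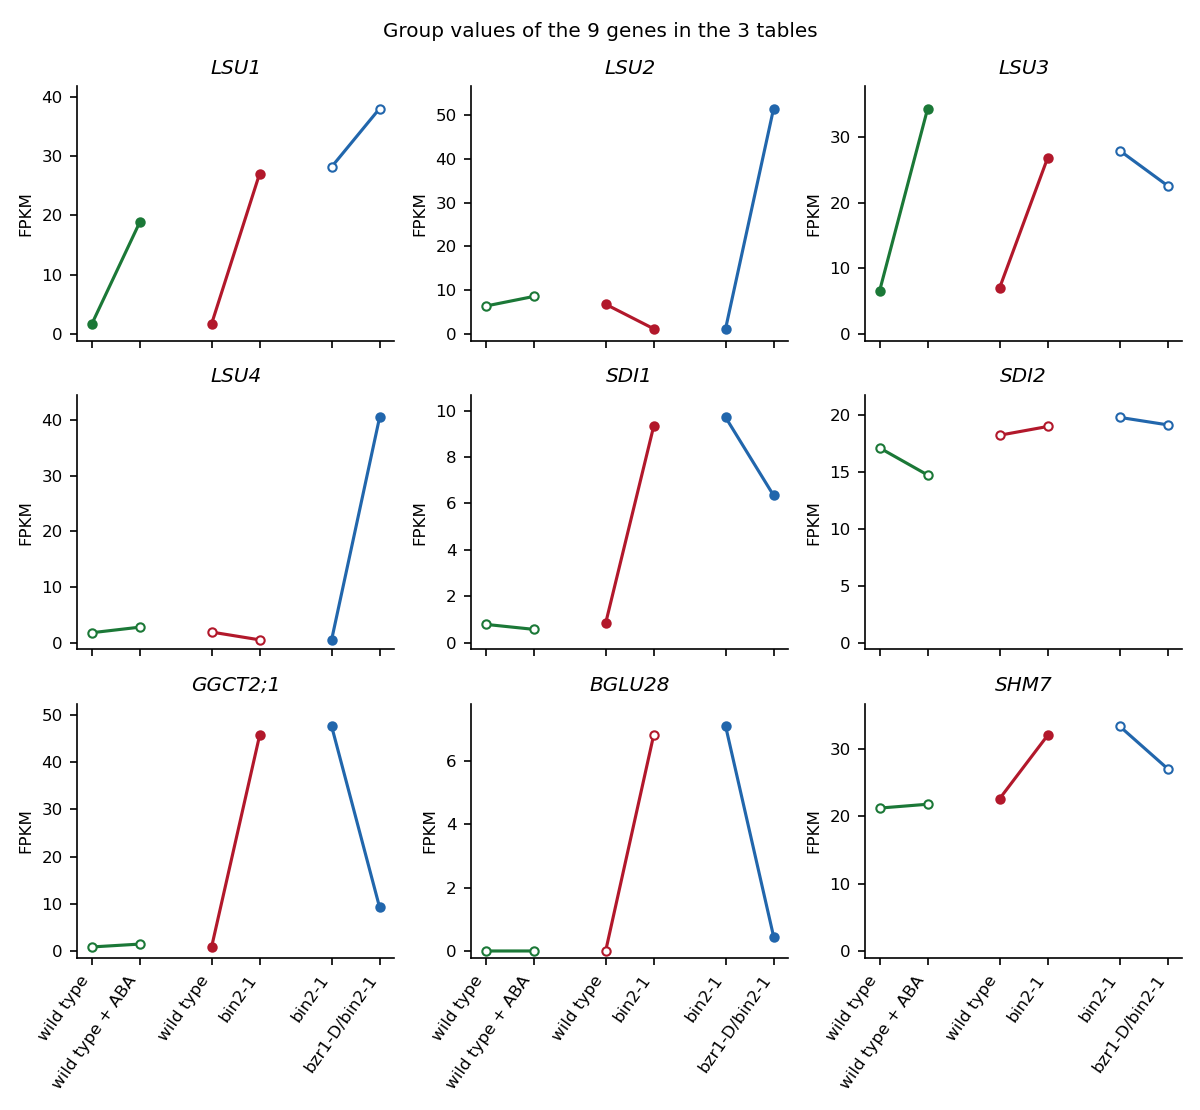
Group values in FPKM (y axes start near 0 and differ between panels) of the 9 genes in the ABA, bin2-1 and bzr1-D tables; each line joins the 2 groups of 1 table, filled points mark q under 0.05 and open points a q not under 0.05 or no test. LSU1 and LSU3 are high in the ABA-treated, bin2-1 and double-mutant groups, LSU2 and LSU4 only in the double mutant.

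LSU1 and LSU3, the pair on chromosome 3, were higher in the ABA-treated, bin2-1 and double-mutant groups than in wild type. LSU1 measured 1.61 FPKM in untreated and 18.8 FPKM in ABA-treated wild type, an 11.7-fold rise (log2 3.55; q = 0.000385 in the authors' deposited table). In the bin2-1 table it went from 1.71 FPKM in wild type to 27.1 FPKM, 15.8-fold (log2 3.98; q = 0.000188 in the authors' deposited table). With bzr1-D it measured 28.2 FPKM in bin2-1 and 38.1 FPKM in the double mutant, which did not pass the test (log2 0.43; q = 0.0566 in the authors' deposited table). LSU1 was the lowest of the 4 LSU genes in untreated wild type, the highest in bin2-1, and ranked below LSU3 after ABA and below LSU2 and LSU4 in the double mutant.

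LSU3 was higher at the start and changed by a smaller factor. Its level was 6.61 FPKM in untreated and 34.4 FPKM in ABA-treated wild type, 5.21-fold higher (log2 2.38; q = 0.000385 in the authors' deposited table). In bin2-1 it rose 3.82-fold, from 7.04 to 26.9 FPKM (log2 1.93; q = 0.000188 in the authors' deposited table). The values of 28.0 FPKM in bin2-1 and 22.6 FPKM in the double mutant did not pass the test (log2 -0.31; q = 0.276 in the authors' deposited table). The 4 values above 20 FPKM, in 3 groups, all belong to plants with ABA or the bin2-1 allele. The smallest q of a table is shared by many genes, so equal q-values do not rank genes.

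LSU2 and LSU4, the pair on chromosome 5, followed another order of groups. LSU2 measured 6.35 FPKM in untreated and 8.55 FPKM in ABA-treated wild type, a difference that did not pass the test (log2 0.43; q = 0.248 in the authors' deposited table). In bin2-1 it fell from 6.76 to 1.16 FPKM (log2 -2.54; q = 0.000360 in the authors' deposited table). With bzr1-D added it rose from 1.21 to 51.6 FPKM, 42.7-fold (log2 5.42; q = 0.000451 in the authors' deposited table). Its lowest group was thus bin2-1 and its highest the double mutant.

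LSU4 showed the same order at lower levels. It measured 1.78 FPKM in untreated and 2.78 FPKM in ABA-treated wild type (log2 0.64; q = 0.338 in the authors' deposited table). In bin2-1 it was listed at 0.501 FPKM against 1.90 FPKM in wild type, which did not pass the test (log2 -1.92; q = 0.0696 in the authors' deposited table). The double mutant stood at 40.5 FPKM against 0.522 FPKM in bin2-1, a 77.5-fold rise (log2 6.28) whose q of 0.0123 in the authors' deposited table is higher than that of LSU2. Genes that rose with bzr1-D were ranked by fold change where both values were above 0 and the higher was at least 5 FPKM. LSU4 ranked 4 and LSU2 ranked 6 of 1876. Their bin2-1 values are low, and adding 1 FPKM to both groups gives a log2 of 4.77 for LSU4 and 4.57 for LSU2.

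The 2 pairs can be set side by side by adding their levels. In untreated wild type of the ABA table the 4 genes summed to 16.3 FPKM, of which LSU2 and LSU4 gave 49.7%. After ABA the sum was 64.6 FPKM and their share was 17.5%. In bin2-1 the sum was 55.6 FPKM and the share was 2.99%, against 17.4 FPKM and 49.7% in wild type of that table. In the double mutant the sum reached 152.8 FPKM, against 57.9 FPKM in bin2-1, and LSU2 and LSU4 gave 60.3% of it. The summed level of LSU1 and LSU3 was 56.2 FPKM in bin2-1 and 60.7 FPKM in the double mutant, so the larger sum there came from the pair on chromosome 5, at 1.73 and 92.1 FPKM. These sums were chosen after the values were seen and have no error.

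**Figure D3:**
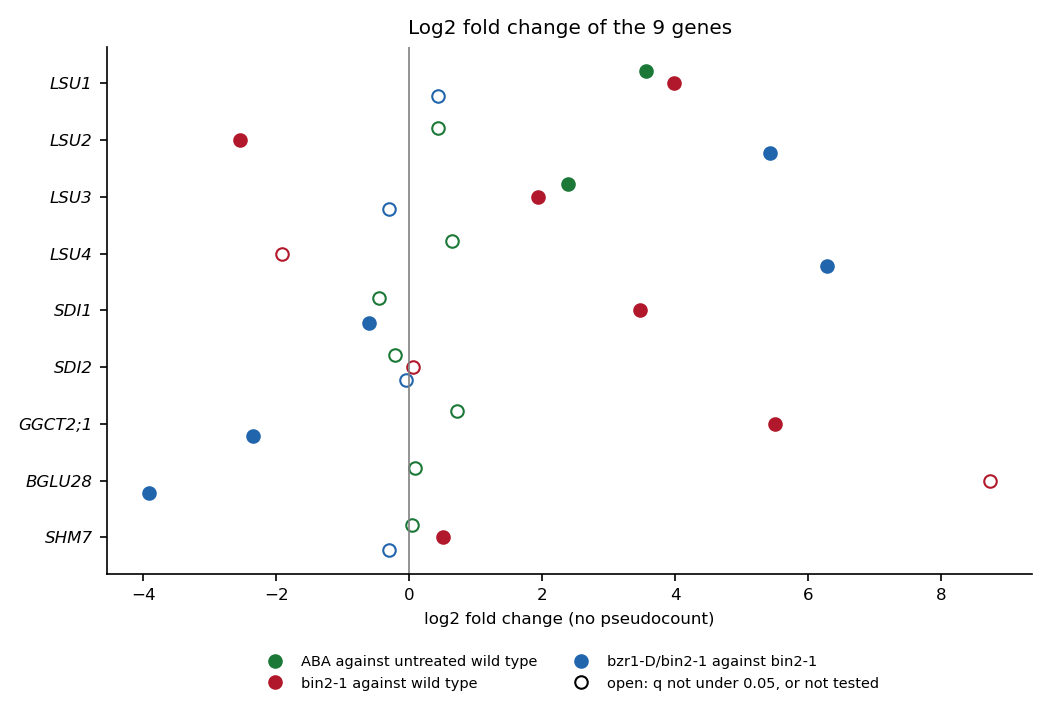
Log2 fold change (x axis, no pseudocount) of each gene (rows) in the 3 comparisons (colours); open points have q not under 0.05 or were not tested. LSU2 and LSU4 lie at 5.42 and 6.28 with bzr1-D, and GGCT2;1 and BGLU28 at -2.35 and -3.91.

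SDI1 and SDI2, related repressors of aliphatic glucosinolate synthesis, had unlike patterns: SDI1 was called in both mutant comparisons and SDI2 in none. SDI1 measured 0.788 FPKM in untreated and 0.573 FPKM in ABA-treated wild type, with no call (log2 -0.46; q = 0.522 in the authors' deposited table). It rose 11.1-fold in bin2-1, from 0.839 to 9.32 FPKM (log2 3.47; q = 0.000188 in the authors' deposited table). The double mutant, at 6.35 FPKM against 9.71 FPKM in bin2-1, was lower (log2 -0.61; q = 0.00746 in the authors' deposited table). SDI1 was thus high in both groups that carry bin2-1 and low in both wild-type groups.

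SDI2 stayed within a narrow range. It was listed at 17.1 and 14.7 FPKM in untreated and ABA-treated wild type, at 18.2 and 19.0 FPKM in wild type and bin2-1, and at 19.8 and 19.2 FPKM in bin2-1 and the double mutant. Its q-values in the authors' deposited table were 0.411, 0.778 and 0.877. VAMP726, a vesicle fusion protein gene that overlaps SDI2, was listed at 1.45 FPKM after ABA, 1.61 FPKM in bin2-1 and 3.12 FPKM in the double mutant. Of 3 related genes of the MS5 family, 1 was tested, AT3G51280, and it was not called in any table.

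GGCT2;1, the glutathione-degrading enzyme, had the largest rise of the 9 genes among the calls in bin2-1. Its level was 0.951 FPKM in untreated and 1.56 FPKM in ABA-treated wild type (log2 0.71; q = 0.225 in the authors' deposited table). In bin2-1 it rose 45.0-fold, from 1.01 to 45.6 FPKM (log2 5.49; q = 0.000188 in the authors' deposited table), which ranked 17 of 3879 genes that rose with at least 5 FPKM. The double mutant was lower, at 9.31 FPKM against 47.5 FPKM in bin2-1 (log2 -2.35; q = 0.000451 in the authors' deposited table). The high value was that of bin2-1 alone, and the double mutant lay between it and wild type.

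The related enzymes GGCT2;2 and GGCT2;3 share 69.2% and 44.9% of residues with GGCT2;1. GGCT2;2, the most abundant of the 3, rose in bin2-1 from 202 to 296 FPKM (log2 0.55) and fell with bzr1-D from 308 to 193 FPKM (log2 -0.67). GGCT2;3 was listed at 14.1 and 19.0 FPKM in wild type and bin2-1 and was not called in any comparison at q under 0.05 (q = 0.0506 in bin2-1 in the authors' deposited table); adjusted over genes of at least 1 FPKM it passed in bin2-1.

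BGLU28 was near 0 in wild type. It was listed at 0.0151 FPKM in untreated and 0.0159 FPKM in ABA-treated wild type, and was not tested there. The bin2-1 group stood at 6.80 FPKM against 0.0160 FPKM in wild type, a ratio of 424 that the authors' deposited table does not call (q = 0.337). With bzr1-D it fell from 7.09 to 0.471 FPKM (log2 -3.91; q = 0.000451 in the authors' deposited table). Only the bin2-1 group was above 1 FPKM. A ratio to a value this near 0 depends on the pseudocount: adding 1 FPKM to both groups gives a log2 fold change of 2.94 in bin2-1, not 8.73.

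SHM7 was well expressed in every group and changed little. It measured 21.2 and 21.8 FPKM in untreated and ABA-treated wild type (log2 0.04; q = 0.910 in the authors' deposited table). In bin2-1 it rose from 22.6 to 32.0 FPKM (log2 0.50; q = 0.00183 in the authors' deposited table). It was listed at 33.4 FPKM in bin2-1 and 27.1 FPKM in the double mutant, a difference that was not called (log2 -0.30; q = 0.108 in the authors' deposited table). Of the 6 other serine hydroxymethyltransferases, which supply one-carbon units from serine, 4 rose and 1 fell in bin2-1, beside 25.4% and 25.6% of all tested genes. SHM2 rose from 21.6 to 71.5 FPKM (log2 1.73) and SHM4 from 168 to 473 FPKM (log2 1.50), while SHM6 fell (log2 -0.46). SHM1 rose (log2 0.43), as did SHM5 (log2 0.72), which also rose with bzr1-D from 8.58 to 14.5 FPKM (log2 0.75). SHM3 was called in no comparison, and no gene of this list was called under ABA, where 1 rose at an unadjusted p under 0.05 in the authors' deposited table.

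The order of levels changed from group to group, with no spread to say which neighbours differ. In untreated wild type SHM7 was highest, followed by SDI2, LSU3, LSU2, LSU4, LSU1, GGCT2;1, SDI1 and BGLU28. After ABA the order was LSU3, SHM7, LSU1, SDI2, LSU2, LSU4, GGCT2;1, SDI1 and BGLU28. In bin2-1 GGCT2;1 led, then came SHM7, LSU1, LSU3, SDI2, SDI1, BGLU28, LSU2 and LSU4. In the double mutant LSU2 and LSU4 led, then came LSU1, SHM7, LSU3, SDI2, GGCT2;1, SDI1 and BGLU28.

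Double mutant and wild type were not compared in 1 table, so their log2 difference was taken as the sum of the bin2-1 and bzr1-D fold changes, 2 tables that share the bin2-1 group. It is a value with no test. It was 4.42 for LSU1, 4.36 for LSU4, 2.87 for LSU2 and 1.63 for LSU3, and 4.82 for BGLU28, 3.14 for GGCT2;1 and 2.86 for SDI1. SHM7 stood at 0.20 and SDI2 at 0.01. The value for BGLU28 rests on 0.0160 FPKM in wild type and is 0.48 with a pseudocount of 1 FPKM, an alternative chosen after the values were seen. All 4 LSU genes, SDI1, GGCT2;1 and BGLU28 were therefore listed above their wild-type level in the double mutant, although LSU2 and LSU4 were listed below it in bin2-1. A group that is in 2 tables differs between them by a near-constant factor, 0.938 for wild type and 1.04 for bin2-1 (0.938 to 0.940 and 1.041 to 1.042 over the members), and because each fold change is taken within its table this factor cancels.

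The 5 genes on each side of the LSU pairs were examined to see whether the pairs' changes extended to them; this was chosen after the values were seen. Around LSU3 and LSU1, 2 of 9 tested neighbours rose and 1 fell under ABA, 1 of 8 rose and 1 fell in bin2-1, and 0 of 8 rose and 3 fell with bzr1-D. Over all tested genes the shares that rose and fell were 15.1% and 9.51% under ABA, 25.4% and 25.6% in bin2-1, and 11.9% and 12.8% with bzr1-D. Their log2 fold changes in bin2-1 ran from -2.58 to 0.65, against 1.93 and 3.98 for the pair. ATG13, an autophagy gene next to LSU1, rose from 23.6 to 38.2 FPKM with ABA (log2 0.69) and fell from 25.2 to 15.6 FPKM in bin2-1 (log2 -0.69).

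Around LSU4 and LSU2, with 10 tested neighbours and the same shares over all genes, 1 rose and 0 fell under ABA, 1 rose and 2 fell in bin2-1, and 2 rose and 1 fell with bzr1-D. With bzr1-D their log2 fold changes ran from -3.18 to 1.02. AT5G24650, next to LSU4, was listed at 53.4 and 45.9 FPKM in bin2-1 and the double mutant and was not called. EMB2820, next to LSU2, moved the way LSU2 did, from 20.9 FPKM in wild type to 7.04 FPKM in bin2-1 (log2 -1.57), and from 7.34 to 14.8 FPKM with bzr1-D (log2 1.02). AT5G24735 moved likewise, from 58.3 to 19.0 FPKM in bin2-1 (log2 -1.62) and from 19.8 to 34.5 FPKM with bzr1-D (log2 0.80). AT5G24640 went the other way, from 37.7 to 79.6 FPKM in bin2-1 (log2 1.08) and from 83.0 to 9.12 FPKM with bzr1-D (log2 -3.18).

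**Figure D4:**
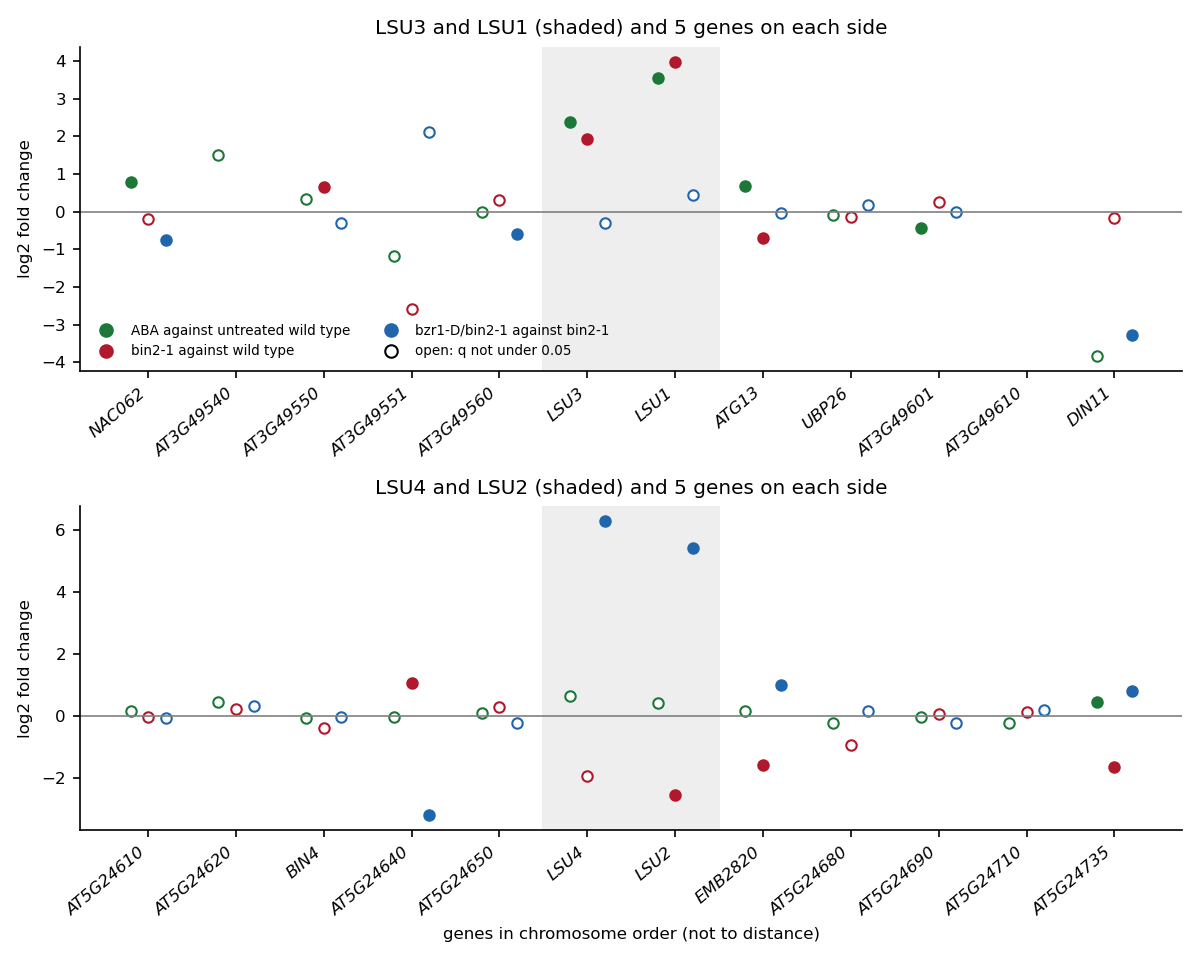
Log2 fold change (y axes) of the LSU pairs (shaded) and the 5 genes on each side in chromosome order, in the 3 comparisons (colours); open points have q not under 0.05, and genes with no test are not drawn. With bzr1-D, LSU4 and LSU2 lie at 6.28 and 5.42, while their neighbours run from -3.18 to 1.02.

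Genes of sulfur metabolism outside the 9 were taken from 9 lists of 74 genes. Of those tested, 11 of 64 rose and 11 fell under ABA (median log2 0.01), 34 of 66 rose and 10 fell in bin2-1 (median 0.50), and 6 of 66 rose and 21 fell with bzr1-D (median -0.24). Over all tested genes 15.1% rose and 9.51% fell under ABA, 25.4% and 25.6% in bin2-1, and 11.9% and 12.8% with bzr1-D, the shares to set beside each list. In the lists below, a 0 in a direction was also 0 at an unadjusted p under 0.05 in the authors' deposited table. The serine hydroxymethyltransferases above are the exception, with 1 such rise under ABA and 1 such fall with bzr1-D. EIL3, the SLIM1 factor, was called in none of the comparisons, with 7.39 FPKM in wild type and 7.88 FPKM in bin2-1.

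Among 11 tested sulfate transporters, 6 rose and 4 fell in bin2-1, beside 25.4% and 25.6% of all tested genes. The 4 that fell include the high-affinity root uptake carriers SULTR1;1, from 4.54 to 0.662 FPKM (log2 -2.78), and SULTR1;2, from 109 to 22.2 FPKM (log2 -2.29). SULTR1;3, which loads sulfate in the phloem, fell from 3.90 to 0.443 FPKM (log2 -3.14) and rose with bzr1-D from 0.462 to 6.54 FPKM (log2 3.82). SULTR2;1, a vascular carrier, rose in bin2-1 from 13.8 to 56.1 FPKM (log2 2.02). The vacuolar exporters SULTR4;1 and SULTR4;2 rose too, SULTR4;2 from 2.47 to 9.17 FPKM (log2 1.89). Under ABA 3 transporters rose and 2 fell, beside 15.1% and 9.51% of all tested genes. The plastid carrier SULTR3;1 went from 0.775 to 27.4 FPKM (log2 5.14) and SULTR3;4 from 3.91 to 33.8 FPKM (log2 3.11). In bin2-1, SULTR3;1 fell from 0.827 to 0.144 FPKM (log2 -2.52), and with bzr1-D it rose from 0.151 to 0.649 FPKM (log2 2.11). With bzr1-D 3 rose and 4 fell, beside 11.9% and 12.8%, and SULTR3;5 fell from 1.95 to 0.854 FPKM (log2 -1.19).

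Of 12 genes for sulfate reduction and activation, 8 rose and 1 fell in bin2-1, and 0 rose and 5 fell with bzr1-D. The shares over all tested genes were 25.4% and 25.6% in bin2-1 and 11.9% and 12.8% with bzr1-D. APR3, an APS reductase, rose in bin2-1 from 19.7 to 118 FPKM (log2 2.58) and fell with bzr1-D from 123 to 60.0 FPKM (log2 -1.03). APR1, of the same family, rose from 30.6 to 131 FPKM in bin2-1. APR2, another APS reductase, rose from 10.4 to 23.4 FPKM under ABA (log2 1.17) and from 11.1 to 36.8 FPKM in bin2-1 (log2 1.73). With bzr1-D, APR2 fell from 38.3 to 25.2 FPKM (log2 -0.61). Under ABA 4 genes of the list rose and 1 fell, beside 15.1% and 9.51% of all tested genes, and APK3, an APS kinase, rose from 3.89 to 8.29 FPKM (log2 1.09).

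Cysteine and glutathione synthesis follow sulfate reduction. For cysteine synthesis, 2 of 7 rose and 1 fell under ABA, beside 15.1% and 9.51% of all tested genes. In bin2-1, 3 of 8 rose and 1 fell, beside 25.4% and 25.6%. With bzr1-D, 0 rose and 1 fell, beside 11.9% and 12.8%. SERAT1;1, a serine acetyltransferase that makes O-acetylserine, rose under ABA from 66.3 to 112 FPKM (log2 0.75) and in bin2-1 from 70.7 to 118 FPKM (log2 0.74). Of its relatives, SERAT2;1 rose under ABA from 72.3 to 146 FPKM (log2 1.01) and SERAT2;2 fell in bin2-1 from 200 to 105 FPKM (log2 -0.93). OASB, which joins O-acetylserine and sulfide to cysteine in plastids, fell with bzr1-D from 106 to 82.3 FPKM (log2 -0.37). For glutathione, 0, 1 and 0 of 6 rose and 1, 0 and 3 fell in the ABA, bin2-1 and bzr1-D tables. The shares over all tested genes are those just given for cysteine synthesis. GSH1, which catalyses the rate-limiting step of glutathione synthesis, fell with bzr1-D from 196 to 137 FPKM (log2 -0.52). OXP1, the 5-oxoprolinase that recycles the product of the GGCT enzymes, fell under ABA from 24.1 to 18.0 FPKM (log2 -0.42).

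Glucosinolate genes, the sulfur sink that SDI1 and SDI2 repress, also moved in bin2-1. Of 10 genes for aliphatic glucosinolate synthesis 7 rose and 1 fell there, beside 25.4% and 25.6% of all tested genes. With bzr1-D 0 rose and 5 fell, beside 11.9% and 12.8%, and 2 fell at q under 0.01 in the authors' deposited table. CYP79F1, which starts the core pathway, rose in bin2-1 from 0.170 to 2.64 FPKM (log2 3.96) and fell with bzr1-D from 2.75 to 0.603 FPKM (log2 -2.19). The more abundant CYP79F2 rose in bin2-1 from 15.3 to 93.7 FPKM (log2 2.61). With bzr1-D, CYP79F2 was listed at 97.6 and 80.9 FPKM and was not called. SOT17, a sulfotransferase of the last step, rose from 7.75 to 49.8 FPKM in bin2-1 (log2 2.68) and fell from 51.9 to 26.2 FPKM with bzr1-D (log2 -0.99). Under ABA 0 of 9 rose and 3 fell, beside 15.1% and 9.51%, among them MAM3 (log2 -1.04) and MAM1 (log2 -0.98), which extend the methionine chain. MYB28, the activator of these genes that SDI1 is known to bind, fell under ABA from 19.0 to 1.60 FPKM (log2 -3.57) and was not called in the other tables. Of the regulators as a list, 1 of 8 rose and 2 fell under ABA, 3 rose and 1 fell in bin2-1, and 0 rose and 1 fell with bzr1-D. The shares over all tested genes are those given for the aliphatic list. MYB34, MYB51 and MYB122 activate indole glucosinolate synthesis. MYB34 rose in bin2-1 from 6.99 to 40.2 FPKM (log2 2.52), and MYB122 rose there (log2 1.58) and under ABA (log2 0.86). MYB51 rose in bin2-1 from 12.1 to 22.4 FPKM (log2 0.89) and fell with bzr1-D from 23.4 to 14.4 FPKM.

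In the list nearest to BGLU28, β-glucosidases that include enzymes of glucosinolate breakdown, 4 of 7 were tested. Of these, 1 rose and 1 fell under ABA, 2 rose and 1 fell in bin2-1, and 2 rose and 2 fell with bzr1-D. Over all tested genes 15.1% rose and 9.51% fell under ABA, 25.4% and 25.6% in bin2-1, and 11.9% and 12.8% with bzr1-D. BGLU30, also called DIN2, rose under ABA from 1.88 to 17.7 FPKM (log2 3.24), rose in bin2-1 from 2.00 to 14.9 FPKM (log2 2.90) and fell with bzr1-D from 15.5 to 2.86 FPKM (log2 -2.44). BGLU23, the abundant root enzyme PYK10, rose in bin2-1 from 1016 to 3326 FPKM (log2 1.71). With bzr1-D, BGLU23 fell from 3467 to 2146 FPKM (log2 -0.69). PEN2, a myrosinase of pathogen defence, went the other way: it fell under ABA from 59.2 to 35.0 FPKM (log2 -0.76), fell in bin2-1 from 63.1 to 42.3 FPKM (log2 -0.58) and rose with bzr1-D from 44.1 to 62.9 FPKM (log2 0.51). BGLU17 rose with bzr1-D from 1.71 to 3.52 FPKM (log2 1.04). BGLU29, a neighbour of BGLU28, was listed at 0 in all groups.

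**Figure D5:**
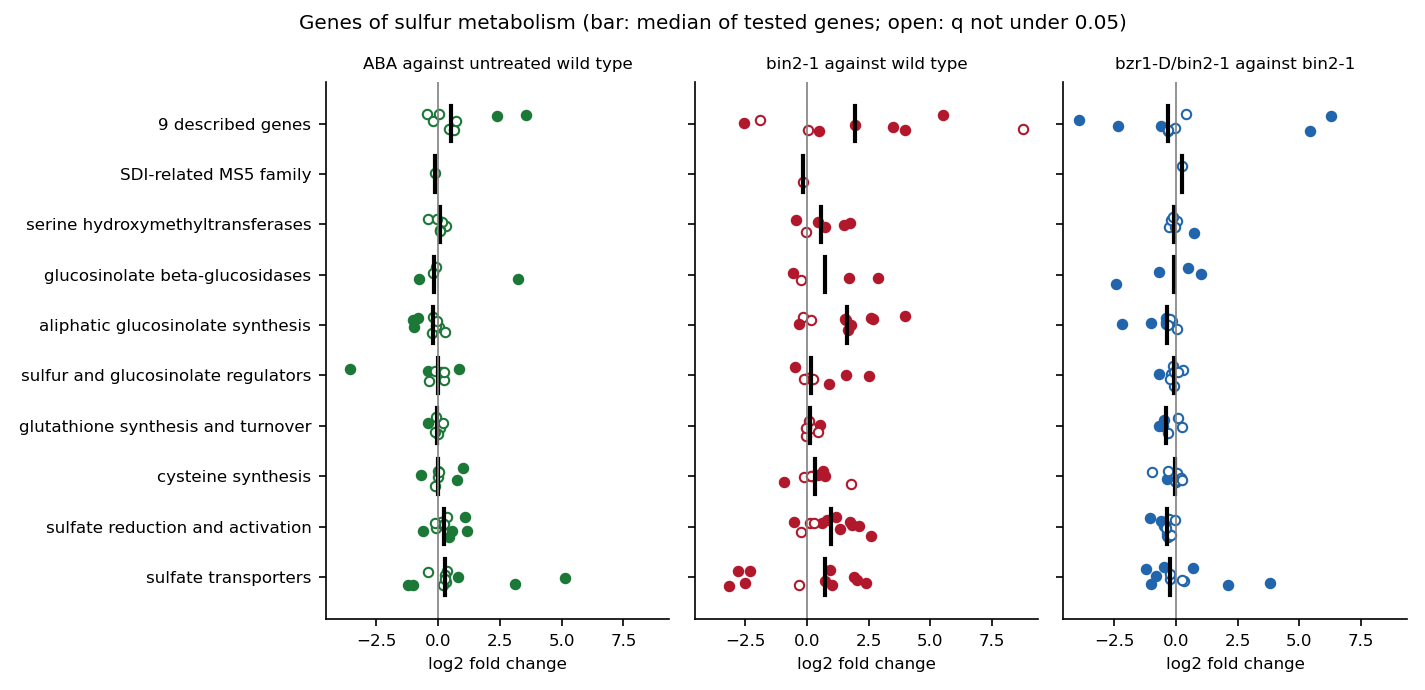
Log2 fold change (x axes) of the tested genes in the 9 sulfur lists and of the 9 described genes (rows) in the 3 comparisons (panels); black bars are list medians and open points have q not under 0.05. In bin2-1 the medians reach 0.99 for sulfate reduction and activation and 1.64 for aliphatic glucosinolate synthesis.

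Likeness to the 9 as a group was the distance between a gene's 3 log2 fold changes and the members' medians (0.43, 1.93 and -0.30). It was taken among 15492 genes tested in all tables with at least 5 FPKM in 1 group. The ABA median here takes in BGLU28, which was not tested under ABA, and is 0.54 over the 8 tested members. The nearest 6 were AT4G32020 (distance 0.072), CRD1 (0.135), PPa5, a soluble pyrophosphatase (0.149), AKN2, the APS kinase APK2 (0.161), APR1 (0.186) and AT1G67570 (0.196). AT4G32020, the nearest, measured 75.1 FPKM in wild type and 301 FPKM in bin2-1. APK2 and APR1 are among the 74 genes of the lists above. Because the members differ so much among themselves, their median stands for few of them.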

How the data were processed

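RNA was taken from root tips and sequenced as TruSeq libraries, per the labels' protocols. The submitters' processing notes name TopHat, Cufflinks and TAIR10, whose versions and settings stand as not given in the sources used here. The group values were deposited by the authors and read as FPKM because Cufflinks is named; their sums run from 960451 to 1148755 per group. The fold change deposited by the authors is the ratio of the group values, and its p-value and q-value were deposited by the authors too, from an unnamed test. The depth of the libraries is unknown.

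Computed here were log2 fold changes, counts at q under 0.05 among genes with p under 1, distances between patterns, protein identity by global alignment and motif matches (Python 3.11.15, pandas 2.3.3, numpy 2.4.6, Biopython 1.88, matplotlib 3.10.9). TAIR10.1 was joined by locus identifier (32810 of 33557 matched, all 9 members), and its coordinates are those printed, since the tables hold none. The members, lists and alternatives were chosen with earlier results of these data known. Named genes were the members, relatives of the members in the lists, the 6 nearest patterns, and the 2 largest changes called in each list and table. For these largest changes both values had to be above 0 and the higher at least 1 FPKM. Markers were named from lists. SULTR1;2, SULTR2;1, SULTR4;1, SULTR4;2, EIL3, CYP79F2, VAMP726 and the genes beside the LSU pairs were named after their values were seen. The adjustment and the pattern distance were tested on simulated data.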

Additional observations from a re-analysis of the deposited data

How the results depend on the processing

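No paired analysis was possible because the tables hold 1 value per group, and leaving out a library was not run for the same reason. With q under 0.01 in place of 0.05, 1 member rose with bzr1-D in place of 2 (LSU4 was lost, q = 0.0123 in the authors' deposited table), and 7 genes of the sulfur lists fell under ABA in place of 11. Of the single lists, q under 0.01 left 1 of 2 sulfate transporters, 0 of 1 reduction and activation gene, 0 of 1 glutathione gene and 1 of 2 regulators that fell under ABA, and 0 of 1 regulator that rose there. It left 0 of 1 aliphatic glucosinolate gene that fell in bin2-1, and with bzr1-D 1 of 3 transporters that rose, 0 of 1 cysteine gene and 2 of 5 aliphatic glucosinolate genes that fell. Adjusting over genes of at least 1 FPKM in 1 group changed 1 list count by over 1.5 times, glutathione genes that rose in bin2-1, from 1 to 2 with GGCT2;3. With a pseudocount of 1 FPKM, 2 of the 6 nearest patterns were shared. The log2 fold changes of the 9 genes kept their direction with a pseudocount of 0.1 or 1 FPKM and with centring on the median, and the largest move was that of BGLU28 in bin2-1, from 8.73 to 2.94. With 1 FPKM added, an alternative chosen after seeing the data, the double mutant's differences from wild type were smaller but kept their sign. BGLU28 moved most, from 4.82 to 0.48. GGCT2;1 went from 3.14 to 2.30, SDI1 from 2.86 to 1.94, LSU1 from 4.42 to 3.79 and LSU4 from 4.36 to 3.82. LSU2 went from 2.87 to 2.73 and LSU3 from 1.63 to 1.50, while SDI2 and SHM7 moved by less. With 50 more bases after the start, a SURE core was found in 5 windows, LSU2 added, and TEIL in 3, LSU3 added.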

Other observations

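The genes nearest in pattern to the separate LSU pairs and to GGCT2;1 were looked up after the values were seen. Nearest to LSU1 and LSU3 were AT3G57010, RWP1, a feruloyl transferase of suberin synthesis, and AT1G54540, at distances of 0.403, 0.468 and 0.570. RWP1 measured 9.22 and 68.3 FPKM in untreated and ABA-treated wild type, 9.82 and 58.2 FPKM in wild type and bin2-1, and 60.6 and 74.9 FPKM in bin2-1 and the double mutant. Nearest to LSU2 and LSU4 were AT1G34330, TIP2;3 and AT1G53887, at 1.16, 1.71 and 1.87. AT1G34330 was called in no comparison, and AT1G53887 only in bin2-1. In bin2-1 they were listed at 0.0905 and 0.248 FPKM, so their ratios rest on values near 0. TIP2;3, a tonoplast aquaporin that also carries ammonia, fell in bin2-1 from 23.6 to 4.52 FPKM and rose with bzr1-D from 4.71 to 96.5 FPKM, and it also rose under ABA, from 22.1 to 56.8 FPKM. Nearest to GGCT2;1 were AT2G44578, NIT4, a nitrilase of cyanide detoxification, and ESE3, at 0.772, 1.18 and 1.26. NIT4 rose in bin2-1 from 0.494 to 12.5 FPKM and fell with bzr1-D from 13.1 to 1.95 FPKM.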
